A study of Drosophila melanogaster with 12 samples.

Results

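Heads of virgin Drosophila melanogaster males from 3 monogamous populations were compared with heads of virgin males from 3 polygamous populations, with 1 mRNA sequencing library per population. Both kinds of laboratory population had been kept under their mating system for 117 generations and then passed 1 generation under shared conditions, and the flies were 4 days old and had been held with their own sex only. These 6 male libraries are part of 12, the others being 3 monogamous and 3 polygamous female libraries from the same populations. The comparison covers the 10574 of 11236 genes in the deposited table whose mean normalised value over the 6 male libraries was 10 or more. CG14262, with a mean of 10.03 (libraries 3.50 to 17.5), lies just inside that limit, and the unnamed gene FBgn0262145, with a mean of 9.99 (libraries 4.67 to 15.3), just outside it. The libraries represent populations and not single flies, and no source used here gives the number of heads per library. The p-values therefore describe the spread between populations of the same mating system.

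Enforced monogamy removes competition among males and choice of mates, whereas polygamy keeps both, and the comparison asks how head transcription differs after many generations of the 2 regimes. The fly head holds the brain with its neurons and glia, the compound eyes, the antennae and mouthparts with their smell and taste neurons, a layer of fat body, circulating and sessile hemocytes, and the cuticle that encloses them. Courtship in males depends on pheromone-sensing neurons and on neurons that express the sex-determination genes fru and dsx. Peptide hormones and amines made in the head tune courtship, feeding and sleep.

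The libraries carried the marks of male heads. The rhodopsin gene ninaE had the highest values, 1786190 to 2005450 in the monogamous libraries and 2290970 to 2487350 in the polygamous ones, a difference that did not pass (adjusted p = 0.217). The male dosage compensation RNA roX1 lay between 66661 and 88863 in the 6 male libraries and between 254 and 403 in the female libraries, and the yolk protein gene Yp1 between 1524 and 2130 in males and at 502613 or more in females. The recovered depth was 39340840 to 49057923 reads per male library. Transcripts of the testis stood out in 1 library: the sperm aminopeptidase gene S-Lap7 had 563.7 in the male library of monogamous population 3, against 1.00 to 52.7 in the other male libraries, and betaTub85D, the testis-specific beta tubulin, had 440.0 there against 73.0 to 116.6 in the others. The summed level of the testis list, of which 9 of 10 members could be tested, was 0.0309 to 0.0331% of the column totals in the monogamous libraries and 0.0287 to 0.0352% in the polygamous ones, and its part in any result was not tested.

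Of the 10574 genes, 426 (4.03%) differed between monogamous and polygamous males at an adjusted p under 0.05 in limma, which compares log2(value + 1) between the groups. Of these, 264 (2.5%) were higher in monogamous males and 162 (1.53%) were lower. For comparison, 3348 genes (31.7%) had groups that did not overlap, 1448 of them (13.7%) higher and 1900 (18.0%) lower in monogamous males, so that non-overlap alone was common in these 6 libraries. Most differences were small: the median log2 fold change was 0.46 among the genes that were higher and -0.32 among those that were lower, and only 29 and 11 genes reached a change of 1 or more on the log2 scale. Because 1 is added before the logarithm, fold changes of genes with low values come out too small.

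The number of genes passing the test changed with the populations included. Without monogamous population 2 no gene passed, although 2000 genes still had an unadjusted p under 0.05 in limma. Without monogamous population 3, 4 genes passed, without monogamous population 1, 134, without polygamous population 2, 88, and without polygamous population 3, 62, whereas 406 passed without polygamous population 1. The split also moved with the scaling, being 264 higher to 162 lower as deposited, 370 to 128 after TMM rescaling and 249 to 197 after upper-quartile rescaling. In edgeR on recovered reads, which differs in both scaling and model, it was 331 to 111. No gene passed in all 16 alternative analyses, and the UDP-glycosyltransferase gene Ugt301D1 came nearest, passing in 15. Among the called genes named here, no log2 fold change moved by over 1.5 times when a single library was left out. With a pseudocount of 10 in place of 1, lectin-37Db, lectin-37Da and CG14607, which have low values, came to -1.45, -1.32 and 1.18, against -2.50, -2.13 and 1.82.

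**Figure D1:**
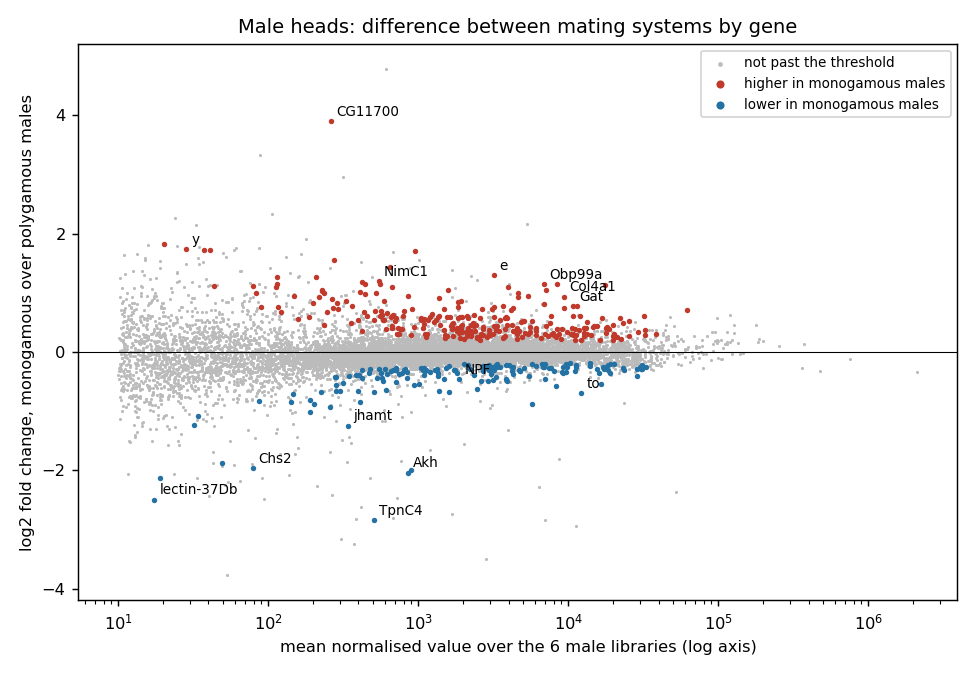
Log2 fold change of monogamous over polygamous males (y axis) against the mean normalised value over the 6 male libraries (x axis, log scale) for the 10574 genes tested. Red points are the 264 genes higher and blue points the 162 genes lower in monogamous males, and most coloured points lie within a change of 1 on the log2 scale.

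Among genes that colour and harden the cuticle, e, y, yellow-c and b were higher in monogamous males. Of 19 pigmentation and sclerotisation genes tested, 4 were higher and none lower (2.5% of all genes were higher), and the list's median log2 fold change was 0.24, against -0.02 over all genes. The summed level of the list overlapped, at 0.257 to 0.274% of the column totals in monogamous males and 0.248 to 0.268% in polygamous males. The gene e (ebony), whose enzyme joins beta-alanine to dopamine to make pale, sclerotised cuticle and also acts on amines in glia, had 5214, 3942 and 4468 in the monogamous libraries and 1890, 2205 and 1493 in the polygamous libraries. Every monogamous library lay well above every polygamous one, with a log2 fold change of 1.29 ± 0.16 (SE, n = 3 populations per group, adjusted p = 0.0178 in limma). The gene y (yellow), needed for black melanin, had low values, 47.8, 39.3 and 43.2 in monogamous males and 7.85, 13.1 and 17.98 in polygamous males, with a log2 fold change of 1.73 ± 0.33 (adjusted p = 0.0405). Its relative yellow-c was also higher, at 0.98 ± 0.08, and so was b (black), which makes the beta-alanine used by Ebony, at 0.46 ± 0.07. The genes e and y thus moved the same way, although their products act towards pale and dark cuticle.

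Some structural cuticle genes were also higher. Of 60 cuticle protein genes tested, out of 77 in the table, 8 were higher and none lower (2.5% of all genes were higher). In the list 46 had a positive log2 fold change, and the median was 0.27. Crys, which encodes a corneal lens protein, had 7971, 10272 and 10496 in monogamous males and 3838, 5560 and 4564 in polygamous males, without overlap (log2 fold change 1.05 ± 0.16, adjusted p = 0.0241). Cpr11A had 46.7, 57.1 and 87.5 against 12.3, 18.6 and 24.98 in the monogamous and polygamous libraries, a change of 1.73 ± 0.34. Lcp65Ag2 changed by 1.12 ± 0.12, but it has near-identical copies between which reads may have been split. Cpr97Eb, Cpr100A, Cpr65Au, Cpr49Ae and Cpr67B completed the list with log2 fold changes of 0.99, 0.91, 0.61, 0.39 and 0.35. The chitin list was mixed: of 26 genes, the deacetylase gene Cda4 was higher, at 0.75 ± 0.13, and the chitin synthase gene Chs2 lower, at -1.97 ± 0.40. Osi2 and Osi9, of the Osiris family found in cuticle-secreting epithelia, were higher by 1.56 ± 0.23 and 1.15 ± 0.24. Summed over the cuticle protein list, the genes made up 0.131 to 0.139% of the column totals in monogamous males and 0.0935 to 0.103% in polygamous males.

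**Figure D2:**
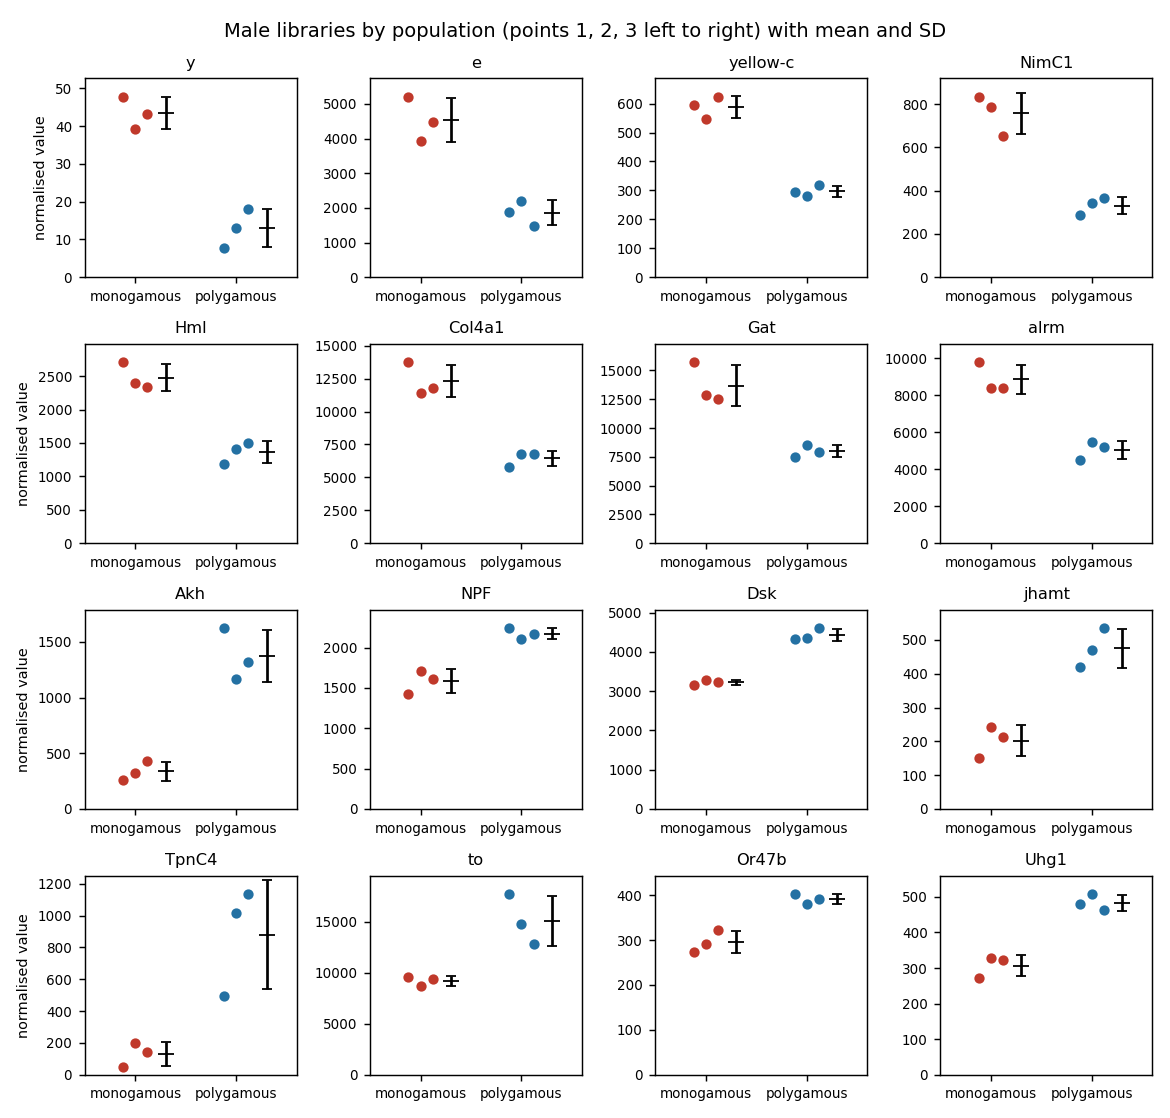
Normalised values of 16 genes in the 3 monogamous (red, left) and 3 polygamous (blue, right) male libraries, with the group mean and SD as black bars and the y axis starting at 0. In each panel the groups do not overlap, with y, e, yellow-c, NimC1, Hml, Col4a1, Gat and alrm higher and the other 8 genes lower in monogamous males.

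Of 17 hemocyte genes tested, 4 were higher in monogamous males and none lower (2.5% of all genes were higher). These blood cells engulf microbes and dead cells and secrete much of the basement membrane. NimC1, a phagocytosis receptor of the Nimrod family, had 835.2, 788.5 and 652.4 in monogamous males and 287.0, 341.4 and 364.7 in polygamous males, without overlap. Its log2 fold change was 1.19 ± 0.13 (SE, n = 3 per group, adjusted p = 0.0145 in limma). Hml (hemolectin, a clotting protein), eater (another phagocytosis receptor) and Sr-CI (a scavenger receptor) were higher by 0.86 ± 0.10, 0.82 ± 0.15 and 0.54 ± 0.07. The list's median was 0.25, and 3 of its members were negative. PPO2, made by crystal cells, had -0.79 ± 0.24 and did not pass (adjusted p = 0.102). NimA, outside the hemocyte list, was higher by 1.72 ± 0.23, from values of 46.7 to 63.7 in monogamous males and 13.99 to 19.1 in polygamous males. In libraries from whole heads, more cells of a type and more RNA per cell cannot be told apart. The summed hemocyte level was 0.0918 to 0.0960% of the column totals in monogamous males and 0.0791 to 0.0843% in polygamous males.

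Basement membrane genes had the largest positive median of the lists in the plot of list members. Of 15 tested, 6 were higher and none lower (2.5% of all genes were higher), and the median log2 fold change was 0.36. Col4a1, a collagen IV chain, had 13740, 11424 and 11823 in monogamous males and 5787, 6762 and 6805 in polygamous males. The lowest monogamous library exceeded the highest polygamous one by a wide margin, and the log2 fold change was 0.93 ± 0.09 (adjusted p = 0.0145). The other chain, vkg, changed by nearly the same amount, 0.94 ± 0.11, with 8480, 6451 and 6430 in monogamous males and 3653, 3748 and 3610 in polygamous males. Ppn (papilin), LanA and LanB1 (laminin chains) and SPARC, which binds collagen, were higher by 0.74, 0.73, 0.50 and 0.38. Outside the list, the collagen-like gene prc (pericardin) was higher by 0.95 ± 0.10 and the lysyl oxidase gene Loxl2 by 0.48 ± 0.10. Hemocytes and fat body are known sources of these matrix proteins, and the hemocyte values above ran in the same direction; their part in the matrix values was not tested.

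Of 23 glial genes tested, 9 were higher in monogamous males and none lower (2.5% of all genes were higher), and the median was 0.26. Glia clear transmitters from synapses, seal the blood-brain barrier and feed neurons. Gat, the glial GABA transporter, had 15705, 12838 and 12479 in monogamous males and 7468, 8523 and 7921 in polygamous males. Every monogamous library lay above every polygamous one, and the log2 fold change was 0.77 ± 0.10 (adjusted p = 0.0183). The astrocyte gene alrm had 9771, 8359 and 8411 in monogamous males and 4489, 5453 and 5188 in polygamous males, a change of 0.81 ± 0.09 (adjusted p = 0.0167). The glutamate transporter gene Eaat1, the sodium pump subunit gene nrv2 and bnb were higher by 0.29, 0.52 and 0.50. At the blood-brain barrier, the efflux pump gene Mdr65, the receptor gene moody and the sugar transporter gene Tret1-1 were higher by 0.36, 0.23 and 0.27, and wun2, a lipid phosphatase gene, by 0.63. The glial transcription factor gene repo had 3246, 2902 and 2884 in monogamous males and 3016, 2764 and 2655 in polygamous males, and did not pass (adjusted p = 0.418).

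A further list of glial transporters and gap junction genes was assembled after the values had been seen, so its count is a description only. It includes Gat, so its count overlaps with that of the glial list above. In it, 10 of 20 genes were higher and none lower (2.5% of all genes were higher). The sodium-coupled transporter genes rumpel and bumpel were higher by 0.72 and 0.73, and the innexin genes Inx2 and ogre, whose channels couple glia, by 0.49 and 0.43. Gabat, which breaks GABA down, was higher by 0.30. Neuronal genes did not share this direction: of 32 neuronal and synaptic genes 16 were positive and 16 negative, and the median was 0.01. None of the 32 passed, where 4.03% of all genes did. The summed glial level was 0.788 to 0.876% of the column totals in monogamous males and 0.655 to 0.672% in polygamous males.

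Of 40 neuropeptide genes tested, 7 were lower in monogamous males and none higher (1.53% of all genes were lower), 31 were negative, and the median was -0.21. The summed level of the list did not share that direction, at 0.456 to 0.504% of the column totals in monogamous males and 0.401 to 0.466% in polygamous males. Akh encodes adipokinetic hormone, which mobilises stored fat and sugar and is made by the corpora cardiaca, an endocrine gland beside the foregut. It had 256.6, 324.0 and 429.5 in monogamous males and 1623, 1170 and 1324 in polygamous males. The highest monogamous library lay far below the lowest polygamous one, and the log2 fold change was -2.04 ± 0.20 (SE, n = 3 per group, adjusted p = 0.0145), passing in 14 of 16 alternatives. Its receptor gene AkhR did not pass, at -0.01 ± 0.07 (adjusted p = 0.970). NPF, a peptide tied to feeding, reward and male mating, had 1430, 1716 and 1607 in monogamous males and 2241, 2109 and 2172 in polygamous males, a change of -0.46 ± 0.07 (adjusted p = 0.0262). Dsk (drosulfakinin, a satiety peptide that also acts in male courtship) had 3157, 3277 and 3227 in monogamous males and 4318, 4362 and 4601 in polygamous males, a change of -0.46 ± 0.04. Dsk varied little within a group, so its modest difference was clear of the spread. NPF varied more among the monogamous libraries (mean 1585, SD 144), although its groups did not overlap. Trissin, Orcokinin, Mip (a sleep and mating-receptivity peptide) and Ms (myosuppressin, which slows gut and heart muscle) were lower by log2 values of -0.68, -0.49, -0.42 and -0.32.

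Other genes of endocrine glands near the foregut are given beside Akh. The gene jhamt, which encodes the last enzyme of juvenile hormone synthesis and is expressed in the corpora allata next to the corpora cardiaca, had 151.7, 242.5 and 212.4 in monogamous males and 420.4, 469.5 and 534.5 in polygamous males, a log2 fold change of -1.25 ± 0.18 (adjusted p = 0.0241). Cyp6g2, also expressed in the corpora allata, had 254.3, 897.1 and 673.4 in monogamous males and 1252, 2566 and 1497 in polygamous males, and did not pass (-1.65 ± 0.48, adjusted p = 0.0973). Another gland gene, Lst (limostatin, of the corpora cardiaca), had 4061, 3166 and 4038 in monogamous males and 4058, 2666 and 3049 in polygamous males and did not pass (0.22 ± 0.17, adjusted p = 0.459). Of 28 juvenile hormone and ecdysone genes, jhamt alone was lower, and Scp2, also named juvenile hormone diol kinase, was higher by 0.40 ± 0.07. By comparison, 1.53% of all genes were lower and 2.5% higher. The list of 4 gland genes was assembled after the values had been seen. Its summed level was 0.0101 to 0.0117% of the column totals in monogamous males and 0.0139 to 0.0160% in polygamous males.

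Of 27 muscle genes tested, 3 were lower in monogamous males and none higher (1.53% of all genes were lower). TpnC4, the troponin C of indirect flight muscle in the thorax, had 51.3, 201.3 and 143.6 in monogamous males and 492.1, 1013 and 1135 in polygamous males (-2.85 ± 0.54, adjusted p = 0.0397). The flight muscle gene fln (flightin) and the tubular muscle actin gene Act79B were lower by log2 values of -0.67 ± 0.14 and -0.57 ± 0.11, with the caution that actin genes are near-identical in sequence. Act88F, the flight muscle actin, had 1297, 2779 and 2637 in monogamous males and 3079, 4561 and 4398 in polygamous males and did not pass (adjusted p = 0.132). Over the list the median was -0.06, 12 members were positive and 15 negative, and the summed level was 1.66 to 1.83% of the column totals in monogamous males and 1.49 to 1.78% in polygamous males. How much neck and thorax tissue each library held was not measured, and the part of these markers in the Akh, jhamt and Chs2 results was not tested.

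Chs2 had 21.0, 31.8 and 36.2 in monogamous males and 213.0, 88.6 and 82.9 in polygamous males (adjusted p = 0.0458). Its enzyme makes the chitin of the peritrophic matrix that lines the gut. The gut genes Cht8 and Muc68D, chosen after their values were seen, ran the same way without passing, and PGRP-SC1b ran the other way. PGRP-SC1b had 55.99, 207.9 and 193.8 in monogamous males and 26.9, 40.5 and 1.00 in polygamous males (3.32 ± 1.16, adjusted p = 0.139 in limma). The chitinase gene Cht8 had 11.7, 74.9 and 122.6 in monogamous males and 993.2, 429.0 and 199.8 in polygamous males (-3.17, adjusted p = 0.0958), and the mucin gene Muc68D had 262.5, 2945 and 3212 in monogamous males and 22570, 7014 and 5824 in polygamous males (adjusted p = 0.147). In Chs2, Cht8 and Muc68D the male library of monogamous population 1 was lowest and that of polygamous population 1 highest among the male libraries. The female library of polygamous population 1 had 36.0, 8.79 and 24.6 for these genes, the lowest polygamous female value in each. The 12 midgut enzyme genes in the table summed to 0.000810 to 0.00700% of the column totals in monogamous males and 0.00143 to 0.00487% in polygamous males. Of the 9 that were tested, 4 were positive and 5 negative, and none passed (4.03% of all genes passed).

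Some smell and taste genes passed, where 2.5% of all genes were higher and 1.53% lower in monogamous males. Obp99a, an odorant-binding protein gene also expressed in fat body, had 9821, 8877 and 9780 in monogamous males and 5172, 3934 and 3872 in polygamous males. It was higher in monogamous males by 1.15 ± 0.11 (adjusted p = 0.0145), and Obp18a by 0.28 ± 0.04, out of 35 odorant-binding protein genes. Of 49 odorant receptor genes, 43 were negative, with a median of -0.29, but only Or47b passed. Or47b, the receptor through which males sense a cuticular pheromone that promotes courtship, had 274.1, 290.3 and 322.1 in monogamous males and 402.4, 379.7 and 390.7 in polygamous males, a change of -0.41 ± 0.08 (adjusted p = 0.0458). Ir76a, an ionotropic receptor of the antenna, was lower by a log2 value of -0.93 ± 0.13, with an overlapping gene on the other strand. Grl36b, a gustatory receptor-like gene, was lower at -0.89 ± 0.11. None of 20 gustatory receptor genes passed. Of 41 cilium genes, a list assembled after the values had been seen, BBS9, BBS4 and the axonemal dynein gene Dhc93AB were lower by log2 values of -0.45, -0.39 and -0.35, and 33 were negative.

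Among genes that serve vision, the carotenoid uptake genes ninaD and santa-maria were higher in monogamous males. Libraries of whole heads do not show in which tissue they differed. The scavenger receptors encoded by ninaD and santa-maria bring in the carotenoids from which the rhodopsin chromophore is made, and they were higher by 0.62 ± 0.10 and 0.58 ± 0.08. The TRP channel partner gene inaF-B was higher by 0.51 ± 0.06, although it shares exons with its neighbours, and ninaA, the chaperone of rhodopsin, was lower by a log2 value of -0.25 ± 0.04. Of 37 genes of phototransduction, 3 were higher and 1 lower (2.5% and 1.53% of all genes), with a median of 0.04. Their summed level was lower in monogamous males without overlap, at 9.07 to 9.80% of the column totals against 10.3 to 11.1% in polygamous males. The eye-pigment transporter gene st (scarlet) and eys, which opens the space between photoreceptors, were also higher, by 0.52 and 0.57. Among 12 clock genes none passed. The clock gene per had 2242, 3014 and 3272 in monogamous males and 1957, 2003 and 1939 in polygamous males (0.51 ± 0.13, adjusted p = 0.0738), a wide spread on the monogamous side only.

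A minority of small RNA and RNA-processing genes passed, each lower in monogamous males. Of 42 small nuclear and nucleolar RNAs and their host genes, 38 were negative, the median was -0.39, and 4 passed, all lower (1.53% of all genes were lower). The host gene Uhg1 had 271.8, 326.8 and 322.1 in monogamous males and 478.6, 507.8 and 463.6 in polygamous males, a change of -0.66 ± 0.09 (adjusted p = 0.0214). Uhg5 and Uhg4, other hosts of the small nucleolar RNAs that guide ribosomal RNA modification, were lower by log2 values of -0.66 and -0.44, and snoRNA:Psi28S-291 by -1.08. Small RNAs are poorly held by mRNA library kits, so their values may not follow their abundance. Genes of pre-mRNA splicing and nuclear RNA binding, a list of 78 assembled after the values had been seen, had 18 lower and none higher, with a median of -0.10. Among them, su(w[a]), Saf-B, hfp and the SR protein gene B52 had log2 fold changes of -0.41, -0.36, -0.31 and -0.28. The differences were small but the libraries were close together: B52 had 27643, 27920 and 28099 in monogamous males and 34576, 33367 and 33702 in polygamous males. The RNA-binding protein gene yps had a change of -0.54 ± 0.05. Of 79 cytoplasmic ribosomal protein genes 71 were negative, with a median of -0.15, and none passed.

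Sex-determination and courtship genes showed small differences. Of 12 sex-determination genes 11 were negative and only Ythdc1, the reader of methylated adenosine that acts in Sxl splicing, passed, with 16288, 16484 and 16424 in monogamous males and 20356, 19932 and 20430 in polygamous males (-0.30 ± 0.04, adjusted p = 0.0183). The gene fru had 7150, 7214 and 7039 in monogamous males and 7133, 7903 and 7635 in polygamous males, and dsx had 2193, 2112 and 2498 in monogamous males and 2708, 2598 and 2273 in polygamous males, both overlapping and not past the test (adjusted p = 0.338 and 0.319). Of 33 courtship and mating genes 4 were lower and none higher (1.53% of all genes were lower). The largest was to (takeout), expressed in male head fat body and required for full courtship and for feeding responses, with 9534, 8670 and 9412 in monogamous males and 17688, 14774 and 12803 in polygamous males, a change of -0.70 ± 0.11 (adjusted p = 0.0280). The transcription factor gene retn, known for its role in female receptivity, changed by -0.23 ± 0.04, and NPF and Or47b complete the 4. Of 9 fat body genes known to differ between the sexes, sxe2 was higher, at 0.45 ± 0.07, against the direction of to. Dosage compensation genes did not pass: roX1 had -0.28 ± 0.07 (adjusted p = 0.0679), roX2 -0.15 ± 0.06 (0.187) and msl-2 -0.09 ± 0.05 (0.321). The yolk protein genes Yp1, Yp2 and Yp3, low in males, had -0.30, -0.37 and -0.16 and did not pass.

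Among metabolic genes, Glyp (glycogen phosphorylase) and Gapdh2 (a glycolytic enzyme) were higher in monogamous males by 0.37 ± 0.06 and 0.31 ± 0.04, and 28 of 33 carbohydrate genes were positive, with a median of 0.19. The fat body list had a median of 0.27. Of its 17 genes Tret1-1 alone, which is also a glial gene, passed (2.5% of all genes were higher). Lsp2 had 2831, 2659 and 8911 in monogamous males and 7858, 699.3 and 1125 in polygamous males, a wide spread within each group. The summed level of the list was 0.730 to 0.780% of the column totals in monogamous males and 0.532 to 0.723% in polygamous males. Of 28 lipid storage and lipase genes none passed, where 4.03% of all genes did.

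Of 79 cytochrome P450 genes, Cyp318a1, Cyp313a1, Cyp4g15 and Cyp4d20 were higher, by 0.77, 0.60, 0.51 and 0.45, and Cyp6t3 was lower, at -0.55. Over all genes, 2.5% were higher and 1.53% lower. Ugt301D1 had 3357, 3451 and 3109 in monogamous males and 1972, 2121 and 1915 in polygamous males (0.72 ± 0.06, adjusted p = 0.0145), and GstT4 had a change of -0.26 ± 0.05, out of 57 transferase genes. The acetylcholine receptor subunit gene nAChRbeta3 had 507.4, 522.5 and 626.8 in monogamous males and 282.5, 250.6 and 282.8 in polygamous males (1.02 ± 0.10, adjusted p = 0.0145), whereas the other 8 tested subunit genes did not pass. The tyramine receptor gene TyrRII was higher by 0.45 ± 0.09.

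Some immune and stress genes passed, each higher in monogamous males (2.5% of all genes were higher and 1.53% lower). None of 27 antimicrobial peptide genes and Toll targets passed, and their median of -0.23 changed sign in 3 of 16 alternatives. AttC had 155.2, 251.9 and 2281 in monogamous males and 247.7, 484.8 and 787.3 in polygamous males, with a wide range within each group. Of 43 recognition and signalling genes, Tep3 and GNBP2 were higher by 0.37 and 0.35. Of 24 heat shock and chaperone genes only the mitochondrial chaperone gene Hsc70-5 passed, higher by 0.32 ± 0.05. Hsp27 had 2534, 2222 and 3308 in monogamous males and 1058, 1661 and 1770 in polygamous males and did not pass (adjusted p = 0.0750).

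Among genes past the test the largest difference was that of CG11700, a ubiquitin-family gene on the X chromosome. It had 935.6, 355.9 and 204.2 in monogamous males and 29.1, 25.2 and 24.98 in polygamous males, a log2 fold change of 3.90 ± 0.50 (adjusted p = 0.0189). The monogamous populations differed among themselves by several fold while the polygamous ones were nearly equal. Reads may be shared with other ubiquitin genes, of which none of the other 4 tested passed. The neighbouring C-type lectin genes on 2L, lectin-37Db and lectin-37Da, were close to absent from monogamous males, with 3.50, 4.68 and 4.67 against 44.8, 27.4 and 19.0 in polygamous males for lectin-37Db (-2.50 ± 0.41, adjusted p = 0.0296) and -2.13 ± 0.39 for lectin-37Da. CG14075 had 253.1, 350.2 and 486.7 in monogamous males and 1734, 1103 and 1410 in polygamous males (-1.99 ± 0.26), a pattern close to that of Akh. Other uncharacterised genes with large differences were CG14607, CG11458, CG34327, CG14495, CG4259, CG4950 and CG15414, higher by log2 values of 1.16 to 1.82, and CG15617, at -1.88. The collagen prolyl hydroxylase-like gene PH4alphaSG2 and Achl had -1.24 and -0.87. Ect3, a predicted beta-galactosidase gene, had 5489, 5355 and 5264 in monogamous males and 2260, 2968 and 2394 in polygamous males (1.09 ± 0.10, adjusted p = 0.0145), and nemy, a cytochrome b561 gene known from memory mutants, was higher by 0.59 ± 0.05. CG10657 and CG40006, with some of the smallest p-values, were higher by 0.61 ± 0.05 and 0.46 ± 0.04.

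**Figure D3:**
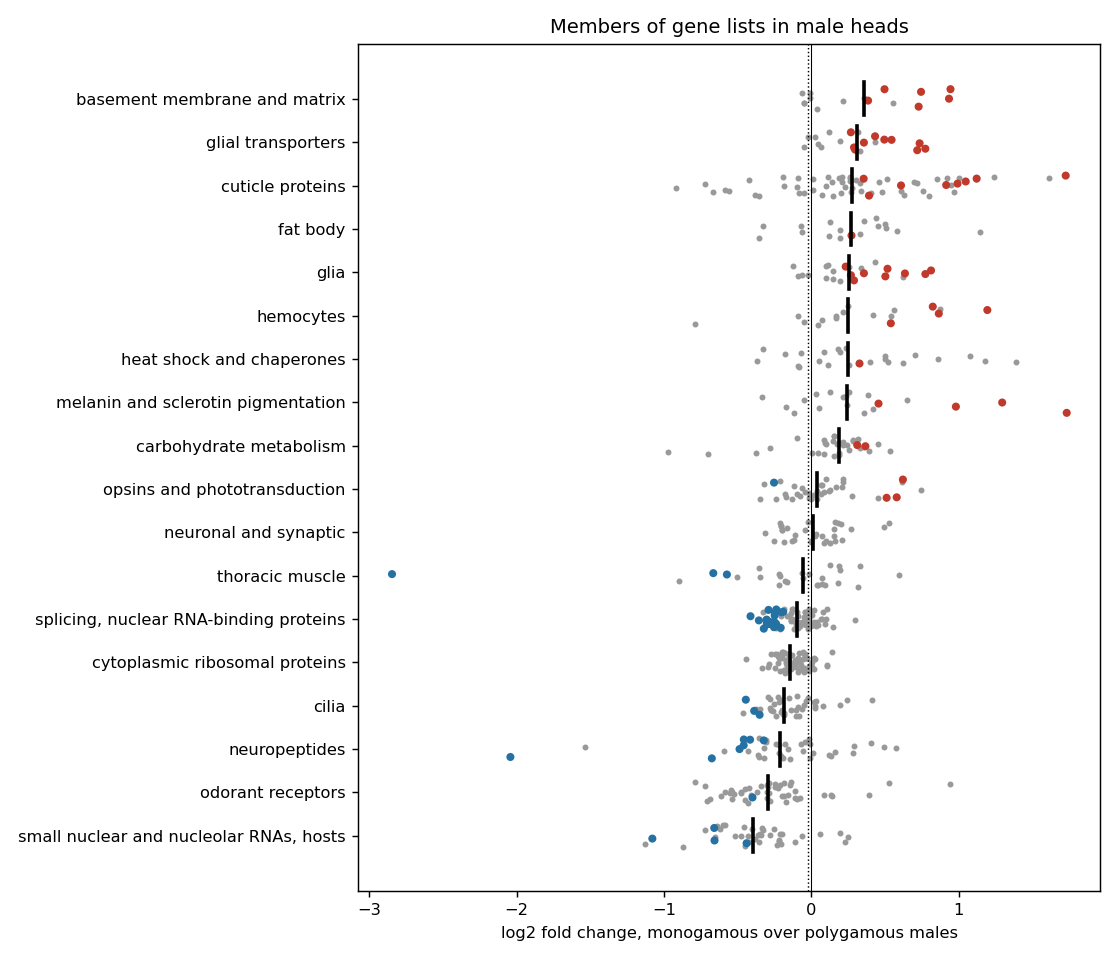
Log2 fold change of monogamous over polygamous males (x axis) for the members of 18 gene lists (rows), with members past the test in red (higher) or blue (lower), others in grey, the list median as a black bar and the median over all genes as a dotted line. Medians run from 0.36 for basement membrane genes to -0.39 for small nuclear and nucleolar RNAs and their hosts.

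Lists differed in how evenly the 3 populations of a mating system shared in the difference. For glial genes, the median member lay 0.08 to 0.16 above the mean of the 6 male libraries in the monogamous populations and at -0.12 to -0.11 in the polygamous ones. For hemocyte genes it lay 0.13 to 0.22 above in the monogamous populations and at -0.23 to -0.15 in the polygamous ones. Cytoplasmic ribosomal protein genes were uneven, with polygamous population 1 at 0.22 above the mean and the other polygamous populations at -0.07 and 0.04. Among heat shock genes, monogamous population 3 lay 0.20 above, and the other monogamous populations at -0.01 and 0.03. Fat body genes were high in monogamous populations 1 and 3 and in polygamous population 1, so that the groups overlapped on this measure.

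**Figure D4:**
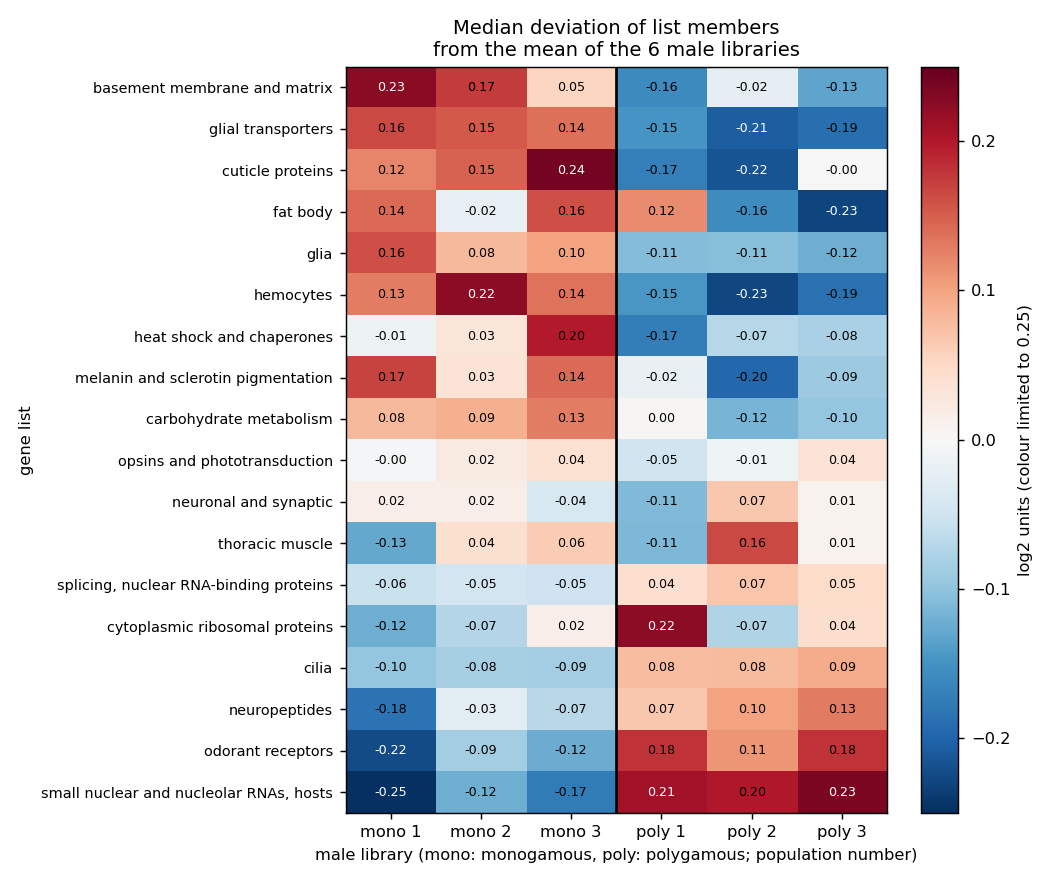
Median deviation of list members from the mean of the 6 male libraries (log2 units, colour and printed value) by gene list (rows) and library (columns, monogamous on the left). Glial and hemocyte lists are positive in every monogamous and negative in every polygamous library, while fat body and cytoplasmic ribosomal protein lists are not.

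Across the 6 male libraries and all genes, principal component 1 (32.9% of variance) placed the monogamous libraries at 4.63 to 25.4 and the polygamous libraries at -19.1 to -14.7. Principal component 2 (31.0%) set monogamous population 3 apart, at -28.8. The median absolute log2 difference between 2 libraries was 0.0777 to 0.120 within the monogamous group, 0.0984 to 0.123 within the polygamous group and 0.134 to 0.166 between the groups, without overlap. The root mean square of the differences, which weights the most divergent genes, was 0.40 to 0.56 within the monogamous group, 0.36 to 0.41 within the polygamous group and 0.41 to 0.56 between the groups, and there the ranges of the monogamous group and of the comparison between groups overlapped. The SD among monogamous libraries was the larger one for 47.4% of genes.

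The share of genes passing the test was similar on the large chromosome arms, at 4.43% on X, 3.77% on 2L, 3.76% on 2R, 3.72% on 3L and 4.09% on 3R. It depended on level, at 0.885% for genes with means of 10 to 100 and 7.33% for genes at 10000 or more. The gene lists were not matched for level. Short genes leaned to negative values: of 4 classes of equal size, the genes with the shortest exon sequence had a median of -0.08 and those with the longest -0.01. The populations did not share this evenly. The median deviation of the shortest class from the mean of the male libraries was -0.10, -0.04 and 0.03 in the monogamous libraries. In the polygamous libraries it was 0.08, -0.01 and 0.04, so the groups overlapped. Small nucleolar RNAs and ribosomal protein genes are short, and the part of length in their values was not tested.

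Female libraries from the same populations gave the same contrast in samples that did not enter the male test. Because the 2 sexes share their populations, agreement between them is not an independent test of the mating system. No gene passed in females at an adjusted p under 0.05 (0.0% of 10574 genes in limma), with 731 under an unadjusted p of 0.05, and 2 passed without the female library of monogamous population 1, which stood apart from the other 11 libraries: the neuronal gene elav had 2523 in it, against 8427 to 10709 in the male libraries. Of the 264 genes higher in monogamous males, 190 (71.97%) were also positive in females, where 45.8% of all genes were positive. Of the 162 genes lower in monogamous males, 147 (90.7%) were negative in females, where 54.2% of all genes were negative. The median female log2 fold changes were 0.15 and -0.28 for the 2 sets and -0.03 over all genes. Without the library that stood apart, 202 and 147 genes kept the male sign. Female groups did not overlap in the male direction for 88 of the 264 (8.87% of all genes were higher in that way) and 94 of the 162 (14.7%).

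Single genes in females ranged from the same size to the opposite sign. CG11700 had 986.0, 272.7 and 164.1 in monogamous females and 14.9, 13.3 and 10.97 in polygamous females, a log2 fold change of 4.67 against 3.90 in males. Obp99a, at 1.19, Ect3, at 0.95, and lectin-37Db, at -2.57, also had values close to those in males. Akh had -0.24 in females and -2.04 in males, jhamt -0.08 and -1.25, to 0.27 and -0.70, and Col4a1 0.02 and 0.93. Several cuticle genes had opposite signs, such as Cpr97Eb, at -0.59 in females and 0.99 in males, and Cpr100A, at -0.68 and 0.91.

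The difference between the sexes was tested as an interaction over the 12 libraries, and no gene passed in limma (0.0%), with 568 under an unadjusted p of 0.05. With population as a block, since the male and female libraries of a number share a population, 9 genes passed, and without the female library that stood apart 9 also passed. Among genes higher in monogamous males, the block fit held Cda4, Cpr97Eb, CG11458, CG7203 and CG3713, and the fit of 11 libraries Cpr49Ae, Cpr100A, Col4a1, Ugt301D1, nemy, CG1537 and CG4462. The 2 fits shared no called gene. In the block fit Cda4 had 0.75 in males and -0.59 in females, and CG11458 1.71 in males and -0.56 in females (adjusted p of the interaction 0.0463 for each).

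**Figure D5:**
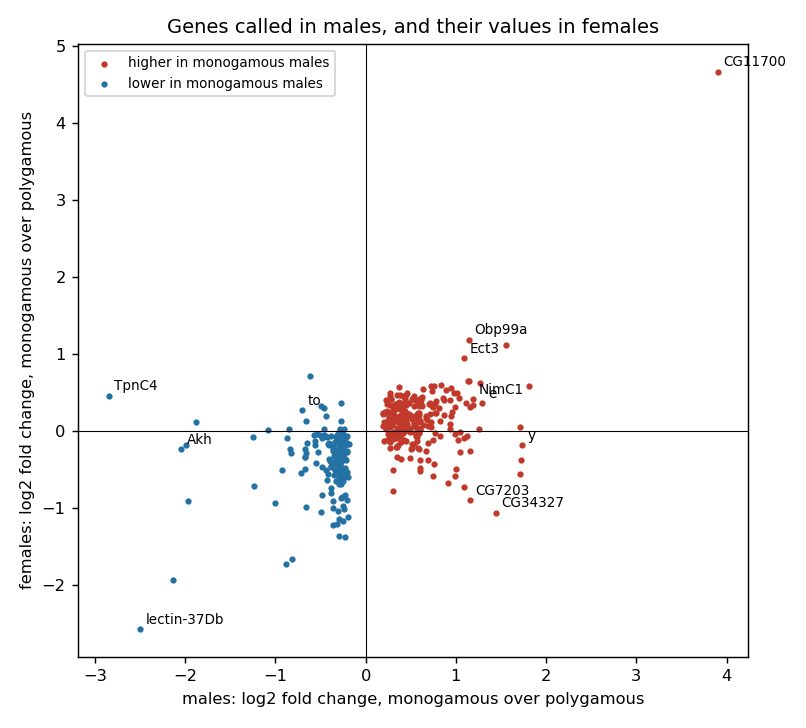
Log2 fold change of monogamous over polygamous females (y axis) against that in males (x axis) for the 426 genes past the test in males, red where higher and blue where lower in monogamous males. Of the red points 190 of 264 lie above 0 and of the blue points 147 of 162 lie below 0 on the female axis.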

How the data were processed

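RNAzol extraction of heads preceded Illumina mRNA-Seq library preparation, per the labels' protocols. The submitters' processing notes name TopHat2, HTSeq, DESeq2 and build BDGP5; no version or setting is given in the sources used here. Each deposited value is a signal, the authors' read count of a gene times 1 factor for each library (read from the values), so that male columns sum to 45916924 to 45942193. The 1 female column with factor 1 holds the authors' counts as deposited. Dividing by the value of 1 read left at least 99.99% of a library's values within 0.1 of a whole read. Every gene lies above 0 in all 12 libraries, and 0 columns were left unused.

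Values were taken as log2(value + 1), genes with a mean under 10 over the 6 male libraries were left out, and limma 3.58.1 (trended eBayes; R 4.3.3) modelled the 6 male libraries alone, with Benjamini-Hochberg adjustment over the 10574 genes and a threshold of 0.05. Fold changes are monogamous over polygamous. The steps were tested on simulated data. Alternatives were TMM and upper-quartile scaling, a pseudocount of 10, no filter, a filter at 50, fits of 12 or 11 libraries, a replicate block, leaving out each library, and edgeR 4.0.16 and DESeq2 1.42.0 on the recovered reads.

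The comparison and the gene lists were chosen with earlier results of these data known. After the values were seen, 4 lists were added and some wrongly matched members were taken out of others. Named genes were, among those past the threshold without overlap, the 14 most raised and the 14 most lowered, the 6 others with the smallest p, up to 4 members of each list past the threshold (or up to 2 where none passed) and a set of sex, hormone and pigment genes. Others named in the text, among them genes shown because they do not pass, were chosen after their values were seen. Symbols and chromosome arms for 10782 of 11236 identifiers came from the later BDGP6 annotation, so no coordinates are given. The use of strand in counting is not stated, so reads of the 4001 genes that overlap another gene's exons are uncertain, among them CG14495, CG4950, CG10657, PH4alphaSG2, yellow-c, Cpr65Au, Uhg1, Uhg4, santa-maria, ninaA, nAChRbeta3, Tep3, fln, prc, ogre, eys, ATPCL, Gabat and su(w[a]).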

Additional observations from a re-analysis of the deposited data

Results flagged for a closer look

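For 8 named genes the male and the female difference between mating systems differed in 1 of the alternative interaction fits, although none passed in the fit of all 12 libraries. Without the female library of monogamous population 1, the male minus the female log2 fold change was -0.94 for Yp1, -0.99 for Yp2, 0.70 for Cpr49Ae, 0.55 for nemy, 0.65 for Ugt301D1 and 0.99 for Col4a1, each with an adjusted p of 0.0436 to 0.0474. With population as a block over 12 libraries it was 1.34 for Cda4 and 2.26 for CG11458, each with an adjusted p of 0.0463. Yp1 and Yp2 had male values of -0.30 and -0.37 and female values of 0.77 and 0.81. Cda4, Cpr49Ae and CG11458 were higher in monogamous males and had negative values in females, at -0.59, -0.37 and -0.56.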

How the results depend on the processing

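The count of 426 genes (264 higher, 162 lower in monogamous males) stayed within 1.5 times under TMM and upper-quartile scaling, both other filters, a pseudocount of 10 and edgeR. It was 68 (57 higher, 11 lower) with all 12 libraries, 858 (486, 372) with 11 libraries and 1177 (808, 369) in DESeq2. Leaving out 1 library gave 0 to 406 genes, 0 to 306 higher and 0 to 100 lower. The cause was not tested. The replicate block gave 25 genes (20 higher, 5 lower); numbers name different populations in the 2 mating systems, and deviations of same-numbered libraries correlated at -0.14 to 0.14, against -0.17 to 0.24 for others, so nothing pairs them. In females the count was 0, and 2 without monogamous female population 1; the interaction count was 0, and 9 both with 11 libraries and with the population block. Of the named genes only AkhR, near 0 at -0.01, changed sign: 0.017 under TMM, 0.022 in edgeR, 0.019 in DESeq2, and -0.078 to 0.047 with 1 library left out. In all 16 alternatives named genes kept side and sign 1380 times, lost the call 497 times and gained it 40 times. With 3 populations a side, small differences in low genes were out of reach.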

Other observations

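Some of the widest differences among male heads did not follow the mating system. CG3397 had 1359, 1121 and 210.1 in monogamous males and 2.24, 966.3 and 4.00 in polygamous males, so that polygamous population 2 joined the monogamous populations and the other polygamous populations were nearly silent. Its log2 fold change was 4.78 ± 2.12 (adjusted p = 0.219). Females of the same populations repeated the pattern, with 3108, 1600 and 397.2 in monogamous females and 5.27, 1433 and 4.99 in polygamous females. CG12224 divided the populations in the same way, with 673.1, 521.6 and 122.6 in monogamous males and 13.4, 546.1 and 10.99 in polygamous males, and likewise in females. These genes were chosen after their values were seen.

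Other genes were high in 1 male library. The genes lcs and CG16826 had 2343 and 4004 in the male library of polygamous population 2 and at most 39.0 and 21.0 in the other male libraries. Several genes of cuticle or unknown function came close to the threshold with large values, such as CG7214, with 11412, 4365 and 10165 in monogamous males and 891.1, 2839 and 2227 in polygamous males (adjusted p = 0.0625). In females CG7214 ran the other way, at -1.15, as did Acp1, at -1.69 in females and 1.42 in males, and Vajk3, at -1.40 and 1.61.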
